A study of Mus musculus with 40 samples.

Results

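The transcripts described here come from 9 genes known from mouse basophils, measured in mast cell and skin libraries in which basophils were not the labelled cell. They are Mcpt8, Prss34, Ccr3, Il18rap, Cd244, Cd200r3, Cd200r4, Itga2 and Gpr183, taken from the expression table by gene symbol. All 9 symbols were found among 23812 rows with 23304 distinct symbols, each on 1 row. They were selected on their FPKM levels in sorted cells, so the difference between the sorted groups chose them and is given below as a description with no test.

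The study asked how skin sensory neurons that express the receptor MrgprD act on mast cells, and RNA was sequenced in 40 mouse libraries, 4 in each of 10 groups. Values are FPKM, fragment counts scaled to transcript length and to the size of the library, so levels can be set side by side between genes of different length. Sorted mast cells, labelled as derived from epidermis with no gate given, came from DTR and Cre mice. The labelled strain of the Cre mice carries the allele Mrgprdtm1.1(cre)And on a B6.129S1(Cg) background. That of the DTR mice is a cross of it with C57BL/6 mice carrying Gt(ROSA)26Sortm1(HBEGF)Awai. In the cross, Cre made from the Mrgprd locus allows expression of the diphtheria toxin receptor HBEGF from the Rosa26 locus, and the toxin then kills cells that carry the receptor. The Cre mice carry the Mrgprd-Cre allele without the receptor, so both groups share that allele. By the treatment protocol, toxin was given for 3 to 4 weeks to both DTR and Cre mice, but the Cre samples themselves are labelled with an acetone and olive oil vehicle, so their toxin treatment was not settled. Cultured mast cells were grown from the peritoneum of C57BL/6J mice. They were held for 6 h with 4 mM glutamate or its vehicle in Tyrode's buffer free of glutamate, or for 48 h with 50 uM NS102, a glutamate receptor antagonist, or its vehicle. Skin of DTR and Cre mice, and skin of C57BL/6J mice given β-alanine (50 mM) or PBS on the ear once a day for 2 days, made up the other 4 groups. The skin samples carry the label Epidermal although the design text speaks of whole ear. Nothing in the labels says whether replicates are separate animals or cultures, so p-values measure only the spread between these libraries, which may be technical.

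Basophils are rare blood granulocytes that, like mast cells, carry the high-affinity IgE receptor and release histamine. In the mouse they depend on IL-3 and store the proteases encoded by Mcpt8 and Prss34. They are usually found by flow cytometry as cells with the IgE receptor, Cd200r3 and the integrin chain encoded by Itga2 that lack the mast cell receptor Kit. Tissue mast cells are known instead for Kit, carboxypeptidase A3 (Cpa3), the chymase Mcpt4 and the tryptase Tpsb2. Several of the 9 genes are used by other cells too, with Ccr3 known from eosinophils, Cd244 and Itga2 from NK cells, Il18rap from NK and T cells, and Gpr183 from B cells and dendritic cells.

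The labelled cell type was set beside 19 mast cell genes found in the table. All 19 had a group mean of at least 1 FPKM in both sorted groups, and their summed level ran from 19635 to 32155 FPKM in sorted DTR libraries and from 11649 to 16550 FPKM in sorted Cre libraries. DTR skin reached that mean for 16 of the 19, with a summed level of 414 to 470 FPKM. Some of the 19, such as Fcer1a and Gata2, are shared with basophils, so these values do not separate mast cells from a mix with basophils. Total FPKM per library ranged from 117574 to 508485 over all groups, and the read depth is unknown. Among 12 genes that every cell uses, 0 were listed at 0 in any of the 40 libraries. Levels below are means ± SD over 4 libraries (n = 4 per group) unless single libraries are given in the order of replicates 1 to 4.

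**Figure D1:**
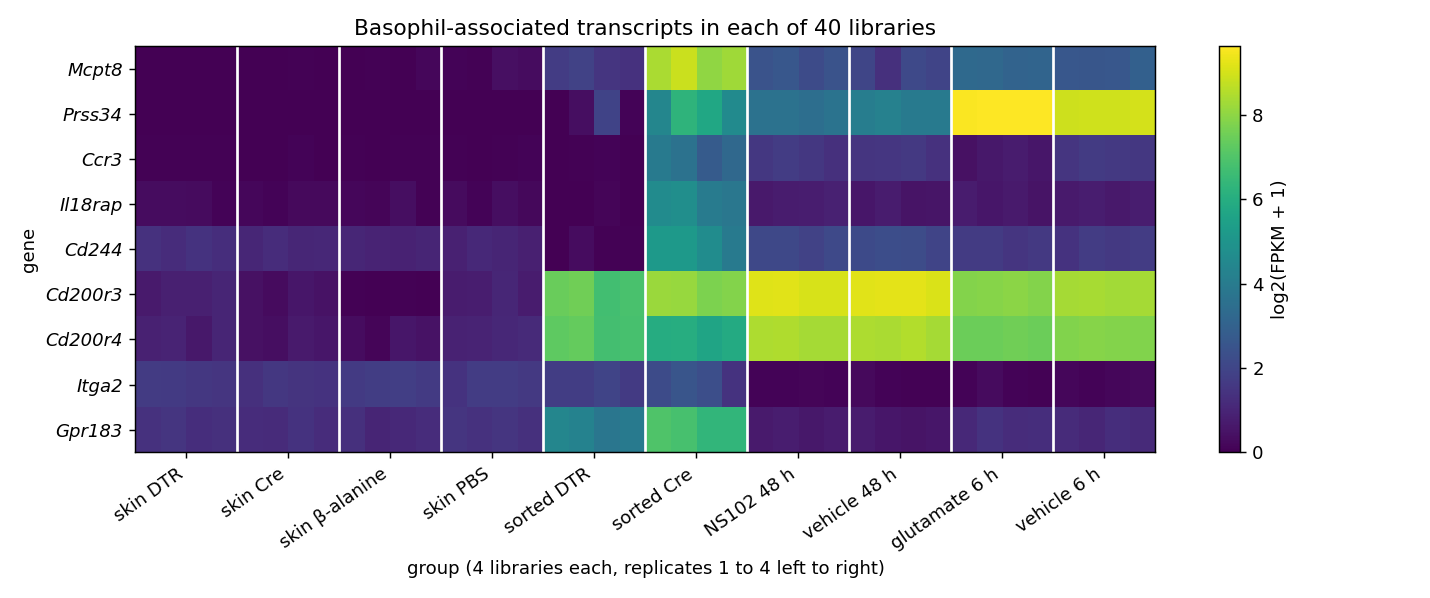
Colour shows log2(FPKM + 1) of each of the 9 genes (rows) in each of the 40 libraries (columns, 4 per group). Sorted Cre libraries are bright for Mcpt8, Cd200r3 and Gpr183, sorted DTR libraries are bright mainly for Cd200r3 and Cd200r4, Prss34 is bright at 6 h of culture, and skin is dark throughout.

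In sorted cells, 7 of the 9 genes were lower in DTR cells than in Cre cells without overlap between the groups, Cd200r4 was higher without overlap, and Itga2 overlapped. Of the 8871 rows that reached 1 FPKM in 4 or more of these 8 libraries, 33.5% did not overlap, 17.3% higher and 16.2% lower in DTR cells, and nothing is read from that share since this contrast chose the genes. The median log2 difference of the 9 genes, DTR minus Cre on the log2(FPKM + 1) scale, was -3.35, against 0.13 over all 8871 rows. Nothing is read from that gap either, for the same reason. Ccr3, Il18rap and Cd244 were at most 0.0653, 0.0876 and 0.262 FPKM in DTR libraries and passed the filter only through the Cre libraries. In bulk samples such as these, fewer cells of a type and less RNA per cell cannot be told apart.

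Mcpt8 had the highest mean of the 9 genes in sorted Cre cells, and both granule proteases were low in sorted DTR cells. Mcpt8 (mm9 chr14:56700999-56704034) encodes mast cell protease 8, a granule serine protease that in the mouse is made mainly by basophils. Its level was 2.29, 2.77, 1.80 and 1.58 FPKM in sorted DTR libraries, against 340, 467, 258 and 308 FPKM in sorted Cre libraries. The highest DTR library stood far below the lowest Cre library, and the mean was 163-fold lower in DTR cells. Prss34 (mm9 chr17:25435338-25437106) encodes mast cell protease 11, a tryptase-like enzyme of basophils. It was at 0, 0.281, 2.79 and 0.0697 FPKM in sorted DTR libraries, against 20.2, 74.9, 52.0 and 23.7 FPKM in sorted Cre libraries. Replicate 3 held most of the Prss34 seen in DTR cells, and replicates 2 and 3 were the higher pair among Cre libraries, so the proteases did not rank the Cre libraries in the same order.

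Ccr3, Il18rap and Cd244, which encode surface receptors, were close to 0 in every DTR library and clearly present in every Cre library. Ccr3 (mm9 chr9:123936702-123946421) encodes the eotaxin receptor and stood at 0.00928, 0.0473, 0.0653 and 0.0235 FPKM in sorted DTR libraries, against 14.4, 11.3, 5.87 and 8.58 FPKM in sorted Cre libraries. Il18rap (mm9 chr1:40572206-40606142), the accessory chain of the IL-18 receptor, stood at 0.0125, 0, 0.0876 and 0 FPKM in sorted DTR libraries, against 23.99, 26.2, 15.2 and 13.1 FPKM in sorted Cre libraries. Cd244 (mm9 chr1:173489323-173515447), a receptor of the SLAM family also called 2B4, stood at 0.0160, 0.262, 0.0424 and 0.0508 FPKM in sorted DTR libraries, against 35.8, 36.3, 24.4 and 14.2 FPKM in sorted Cre libraries. For all 3 receptors, replicates 1 and 2 were the higher pair of Cre libraries.

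Gpr183 and Itga2 were measured in both sorted groups. Gpr183 (mm9 chr14:122351552-122364415), which encodes a receptor for oxysterols that guides cell migration, had 20.6, 18.2, 12.7 and 14.6 FPKM in sorted DTR libraries, against 126, 111, 79.8 and 79.6 FPKM in sorted Cre libraries. All DTR libraries were below all Cre libraries, with a mean 5.99-fold lower in DTR cells, and Gpr183 lies within the span of another gene of the table, Ubac2, so reads of the pair may not be fully separated. Itga2 (mm9 chr13:115626119-115722249), the integrin alpha 2 chain, had 2.40, 2.40, 2.91 and 2.09 FPKM in sorted DTR libraries, against 3.57, 4.74, 3.99 and 1.68 FPKM in sorted Cre libraries. Replicate 4 of the Cre group was below all DTR libraries, so the groups overlapped.

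Cd200r3 and Cd200r4, neighbours on chromosome 16, were abundant in both sorted groups and moved in opposite directions. They encode receptors of the CD200 receptor family that pair with activating adaptors on mast cells and basophils. Cd200r3 (mm9 chr16:44943790-44981493) had 171, 187, 103 and 114 FPKM in sorted DTR libraries, against 286, 279, 209 and 230 FPKM in sorted Cre libraries. Cd200r4 (mm9 chr16:44820840-44839263) had 152, 163, 108 and 114 FPKM in sorted DTR libraries, against 61.0, 62.8, 48.9 and 57.9 FPKM in sorted Cre libraries. Neither gene overlapped between groups, with Cd200r3 lower and Cd200r4 higher in DTR cells. The ratio of Cd200r3 to Cd200r4 within a library was therefore 1.06 ± 0.0908 in sorted DTR cells and 4.35 ± 0.300 in sorted Cre cells. Of the 50-base stretches of their annotated transcripts, 2.69% for Cd200r3 and 4.94% for Cd200r4 also occur in transcripts of other genes, and 0 do for each of the other 7 members.

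**Figure D2:**
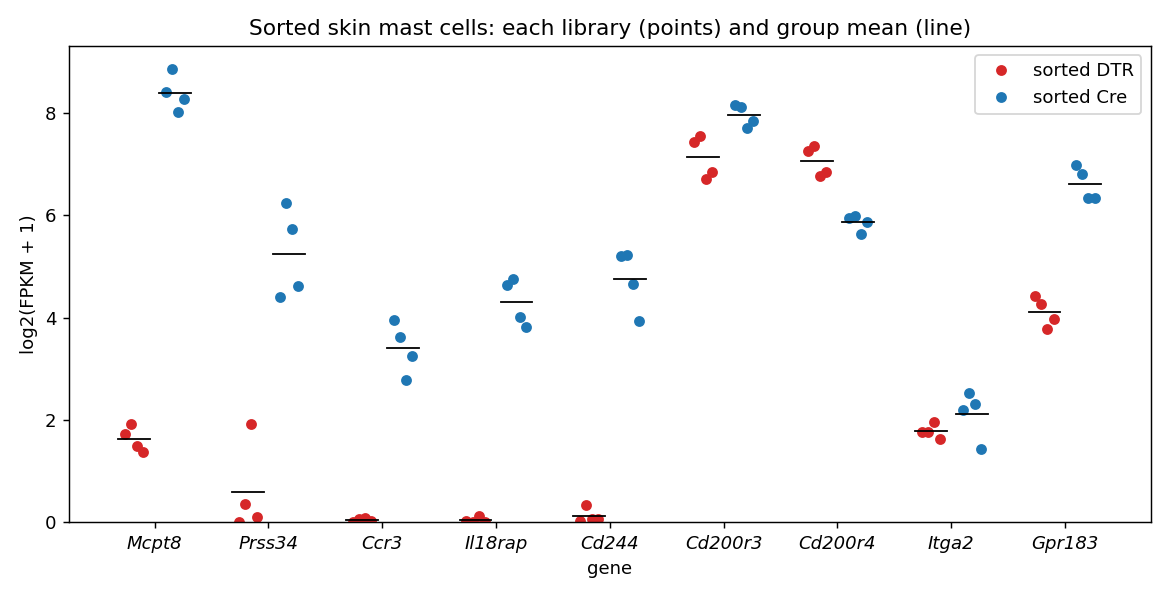
Points are single libraries of sorted skin mast cells (DTR left, Cre right, 4 each) and lines are group means, on the log2(FPKM + 1) axis. Cd200r4 is the only gene with all DTR points above all Cre points, and Itga2 the only one whose groups overlap.

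Of the 19 mast cell genes, 12 were higher in sorted DTR cells than in sorted Cre cells without overlap, 2 (Fcer1a and Gata2) were lower without overlap and 5 overlapped, with a median log2 difference of 0.95. Over all 8871 rows, 17.3% were higher and 16.2% lower in DTR cells without overlap. The counts of this and the next lists come from the contrast that chose the 9 genes and are a description with no test. Cpa3 averaged 4352 ± 844 FPKM in sorted DTR cells and 1891 ± 271 FPKM in sorted Cre cells, and Kit averaged 196 ± 47.6 FPKM in sorted DTR cells and 47.6 ± 5.79 FPKM in sorted Cre cells. Per 1000 FPKM of Cpa3 in the same library, Mcpt8 stood at 0.484 ± 0.0710 in sorted DTR cells and 183 ± 43.8 in sorted Cre cells. Of the 22 genes shared by basophils and mast cells, 21 passed the filter, of which 10 were lower in sorted DTR cells without overlap, 1 (Ms4a2) was higher without overlap and 10 overlapped, with a median log2 difference of -0.80. Alox5, 1 of the 10 lower, was at most 0.305 FPKM in DTR libraries and passed the filter only through the Cre libraries. Fcer1a, the IgE-binding chain of the IgE receptor, averaged 289 ± 94.5 FPKM in sorted DTR cells and 573 ± 98.3 FPKM in sorted Cre cells. Ms4a2, the beta chain of the same receptor, averaged 346 ± 63.8 FPKM in sorted DTR cells and 228 ± 37.9 FPKM in sorted Cre cells. Gata2, a transcription factor that both cell types need, averaged 96.4 ± 25.9 FPKM in sorted DTR cells and 228 ± 28.5 FPKM in sorted Cre cells.

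Another 27 genes reported in basophils, most of them also used by other leukocytes, had a median log2 difference of -4.43 over the 24 that passed the filter on low values, of which 18 were lower in sorted DTR cells without overlap, 1 (Stat5a) was higher without overlap and 5 overlapped. Their summed level ran from 259 to 454 FPKM in sorted DTR libraries and from 5368 to 8928 FPKM in sorted Cre libraries, and 11 of 27 had a mean of at least 1 FPKM in DTR cells, against 24 of 27 in Cre cells. Ccl3, C5ar1 and Ccr1 were at most 0.0465, 0.197 and 0.0952 FPKM in DTR libraries. Such genes passed the filter only through the Cre libraries and had to be lower, so nothing is read from the counts or the median. Over all 8871 rows, 17.3% were higher and 16.2% lower in DTR cells without overlap. The chemokine genes Ccl4 and Ccl3 had the highest means of this list in Cre cells, and Fcgr3 had the highest in DTR cells. Ccl4 averaged 2.02 ± 3.10 FPKM in sorted DTR cells and 3243 ± 832 FPKM in sorted Cre cells. Ccl3 averaged 0.0116 ± 0.0233 FPKM in sorted DTR cells and 2372 ± 676 FPKM in sorted Cre cells. Osm, which encodes the cytokine oncostatin M, averaged 19.8 ± 9.41 FPKM in sorted DTR cells and 422 ± 65.4 FPKM in sorted Cre cells. The IgG receptor chain Fcgr3 did not share this pattern, at 209 ± 53.4 FPKM in sorted DTR cells and 203 ± 17.2 FPKM in sorted Cre cells. Cd24a, a surface protein of many leukocytes, was near 0 in both, at 0.323 ± 0.317 FPKM in sorted DTR cells and 0.646 ± 0.834 FPKM in sorted Cre cells.

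Lists of markers of other cells were summed in the same libraries, and several sums differed between the sorted groups. The summed level of 11 neutrophil genes ran from 0.161 to 0.458 FPKM in sorted DTR libraries and from 51.6 to 253 FPKM in sorted Cre libraries. The highest mean in Cre cells was that of Cxcr2, at 44.8 to 71.2 FPKM. This chemokine receptor gene is also in the list of other basophil genes. Csf3r, the G-CSF receptor gene, was at most 0.0297 FPKM in sorted DTR libraries and 0.0517 FPKM in sorted Cre libraries. Camp, a neutrophil granule gene, was listed at 0 in all 8 libraries. S100a8 was listed at 0 in 3 of 4 libraries of each group. It had 0.218 FPKM in the remaining DTR library and 112 FPKM in Cre replicate 3. S100a9 and Retnlg were also highest in Cre replicate 3, at 76.7 and 18.8 FPKM. The summed level of 8 eosinophil genes ran from 4.76 to 7.43 FPKM in sorted DTR libraries and from 5.03 to 10.8 FPKM in sorted Cre libraries. Il5ra, the IL-5 receptor chain, carried most of this sum in DTR cells, at 4.48 to 6.30 FPKM in DTR libraries and 0.652 to 1.54 FPKM in Cre libraries. Siglec5, the symbol under which Siglecf was matched, carried most of it in Cre cells, at 0.196 to 0.877 FPKM in DTR libraries and 3.59 to 9.91 FPKM in Cre libraries. The eosinophil granule genes were low, with Prg2 at most 0.0440 FPKM in DTR libraries and listed at 0 in all Cre libraries, and Epx, the eosinophil peroxidase gene, at most 0.0145 FPKM in DTR and 0.00976 FPKM in Cre libraries. The summed level of 16 NK, T and innate lymphoid genes ran from 3.43 to 4.91 FPKM in sorted DTR libraries and from 3.00 to 10.03 FPKM in sorted Cre libraries, with Gata3 the highest in DTR cells at 3.53 ± 1.05 FPKM and Rora the highest in Cre cells at 4.70 ± 2.73 FPKM. Ncr1, a receptor gene of NK cells, was at most 0.0564 FPKM in DTR and 0.0387 FPKM in Cre libraries. Cd3g, Cd3e and Il2rb were highest in Cre replicate 3, at 1.32, 0.752 and 0.916 FPKM. The summed level of 13 macrophage and monocyte genes ran from 8.24 to 18.3 FPKM in sorted DTR libraries and from 49.7 to 114 FPKM in sorted Cre libraries, with Lyz2 the highest in DTR cells at 5.58 ± 2.37 FPKM and Ccr2, which is also in the list of other basophil genes, the highest in Cre cells at 26.8 ± 10.3 FPKM. Lists for B and dendritic cells, keratinocytes and platelets reached at most 12.3, 12.7 and 80.5 FPKM, the last mostly from Itga2b, which mast cells also express. Red cell and fibroblast or endothelial genes were uneven, reaching 664 and 390 FPKM in single Cre libraries, with Hba-a1 and Dcn their highest genes. The part of these lists in the differences of the 9 genes was not tested.

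Promoter sequence was set beside these patterns for the proteases, Ccr3 and the CD200 receptor pair. The motif GATAA, read as GATAA or TTATC on the printed strand, is the core that GATA factors such as Gata2 bind. Windows ran from 250 bases before to 50 bases after the start of each gene in RefSeq annotation of build GRCm38.p6, and 9 of 9 members matched, Cd244 under the symbol Cd244a. The windows printed 5′ to 3′ lie at chr14:56085148-56085447 on the minus strand for Mcpt8, and on the plus strand at chr17:25298144-25298443 for Prss34, chr9:124021721-124022020 for Ccr3, chr16:44943428-44943727 for Cd200r3 and chr16:44820478-44820777 for Cd200r4. Capitals mark GATAA or TTATC, and the remaining bases are in lower case.
Mcpt8: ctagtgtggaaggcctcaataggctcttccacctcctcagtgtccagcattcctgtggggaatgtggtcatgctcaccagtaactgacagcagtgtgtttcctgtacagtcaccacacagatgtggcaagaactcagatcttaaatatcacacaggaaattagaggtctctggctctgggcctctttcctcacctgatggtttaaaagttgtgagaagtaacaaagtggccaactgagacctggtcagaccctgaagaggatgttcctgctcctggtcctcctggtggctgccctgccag
Prss34: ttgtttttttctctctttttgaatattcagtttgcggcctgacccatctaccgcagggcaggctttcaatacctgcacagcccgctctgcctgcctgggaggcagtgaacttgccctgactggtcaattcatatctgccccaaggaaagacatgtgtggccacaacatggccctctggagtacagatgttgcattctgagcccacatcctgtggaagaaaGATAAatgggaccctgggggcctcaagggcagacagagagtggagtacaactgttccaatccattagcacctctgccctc
Ccr3: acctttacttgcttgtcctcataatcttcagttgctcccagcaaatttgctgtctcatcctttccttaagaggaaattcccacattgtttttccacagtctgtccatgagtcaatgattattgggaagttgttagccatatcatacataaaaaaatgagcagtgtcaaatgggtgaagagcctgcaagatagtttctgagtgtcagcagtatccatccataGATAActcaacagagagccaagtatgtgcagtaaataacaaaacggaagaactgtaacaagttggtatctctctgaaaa
Cd200r3: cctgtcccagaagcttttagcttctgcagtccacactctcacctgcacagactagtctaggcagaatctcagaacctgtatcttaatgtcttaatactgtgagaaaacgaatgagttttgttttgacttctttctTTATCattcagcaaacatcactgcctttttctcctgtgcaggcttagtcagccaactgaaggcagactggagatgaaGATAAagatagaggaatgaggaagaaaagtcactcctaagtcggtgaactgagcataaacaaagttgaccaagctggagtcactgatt
Cd200r4: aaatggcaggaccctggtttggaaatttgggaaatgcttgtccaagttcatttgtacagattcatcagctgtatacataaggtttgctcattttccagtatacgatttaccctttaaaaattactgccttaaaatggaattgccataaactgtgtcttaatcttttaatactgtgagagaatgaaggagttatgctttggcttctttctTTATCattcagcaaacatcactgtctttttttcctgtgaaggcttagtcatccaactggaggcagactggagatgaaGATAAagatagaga

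The motif was found in 5 of the 9 member windows, against 25.3% of 32544 windows of the same length over all genes. It began 30 bases before the start of Prss34, 29 bases before that of Ccr3 and 209 bases before that of Il18rap. Cd200r3 held it 115 and 38 bases before its start, and Cd200r4 held it 41 bases before and 36 bases after. The window of Mcpt8, the gene with the highest level in Cre cells, held no match, which says only that these letters are not in that window. The Cd200r3 and Cd200r4 windows were alike over 156 aligned columns, of which 140 (89.7%) were identical, although the levels of the pair differed in opposite directions between the sorted groups. Of the other motifs searched on both strands, TGANTCA of AP-1 was in 2 of 9 member windows and 7.79% of all, TGTGGT of RUNX in 2 of 9 and 16.7%, TTGCNNAA of C/EBP in 4 of 9 and 10.8%, and TTCNNNGAA of STAT5 in 0 of 9 and 8.33%. Cd200r3 and Cd200r4, whose windows are alike, both count in the 5 of 9 for GATAA and the 4 of 9 for C/EBP. These counts are therefore not of independent windows. A match is a description of the sequence and not evidence of binding.

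Set against the cultured cells, the 9 genes fell into different orders. Mcpt8, Ccr3, Il18rap, Cd244 and Gpr183 were higher in sorted Cre cells than in every other group, with no overlap with the next group down. Mcpt8 was 62.9-fold and Gpr183 81.0-fold higher in sorted Cre cells than in cultured vehicle cells at 6 h. Itga2 also had its highest mean in sorted Cre cells, but there its values overlapped those of sorted DTR cells and skin, and it was at or below 0.228 FPKM in every cultured library. Prss34 was highest in cultured cells at 6 h, with 11.5-fold more in vehicle cells at 6 h than in sorted Cre cells. Cd200r3 and Cd200r4 were highest in cultured cells at 48 h, where the NS102 and vehicle groups overlapped. The ratio of Prss34 to Mcpt8 in a library was 97.6 ± 10.1 with glutamate at 6 h, 91.3 ± 9.53 with vehicle at 6 h, 2.55 ± 0.266 with NS102 at 48 h, 6.55 ± 3.52 with vehicle at 48 h and 0.125 ± 0.0676 in sorted Cre cells. Total FPKM per library was 117574 to 191722 in sorted DTR cells and 161968 to 197003 in sorted Cre cells. It was 378212 to 389859 in cultured vehicle cells at 6 h and 397388 to 413602 at 48 h. No adjustment was made for that gap, so nothing is read from small differences between sorted and cultured cells, such as the 2.56-fold lower Cd200r4 below. Sorted DTR cells overlapped cultured vehicle cells at 48 h for Mcpt8, and were lower than them without overlap for Prss34, Ccr3, Il18rap, Cd244, Cd200r3 and Cd200r4. For Gpr183 and Itga2, sorted DTR cells were higher than cultured vehicle cells at 48 h without overlap, by 31.99-fold and 29.7-fold.

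In cultured cells, glutamate for 6 h went with more of both proteases. Differences were tested with limma on log2(FPKM + 1) over all rows that reached 1 FPKM in 4 or more of the 8 libraries, with Benjamini-Hochberg adjustment over all rows tested, and an adjusted p under 0.05 counts as past the test. Of the 9 genes, 7 passed the filter and 5 passed the test, 2 higher and 3 lower with glutamate, and 1 of the 3 lower (Ccr3) entered the test only through its vehicle libraries. Over all rows, 79.3% of 8297 passed, 16.9% higher and 62.4% lower, so the share of members called was near that of all rows. With each library centred on its median, 44.6% of rows were higher and 31.5% lower with glutamate. The median row was 0.33 lower with glutamate on the log2 scale, and changes are given relative to that shift as well.

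Prss34 had 755, 778, 788 and 793 FPKM in glutamate libraries, against 473, 488, 493 and 516 FPKM in vehicle libraries at 6 h. All glutamate libraries were above all vehicle libraries, with a log2 difference of 0.66 ± 0.0322 (SE), or 0.99 relative to the median row (limma adjusted p = 1.03e-09). Mcpt8 had 8.67, 8.58, 7.38 and 7.49 FPKM in glutamate libraries, against 5.08, 4.90, 5.20 and 6.65 FPKM in vehicle libraries. It too was higher in every glutamate library, by 0.49 ± 0.0873 (limma adjusted p = 0.000177), or 0.82 relative to the median row. The proteases rose by about as much as Cpa3, which averaged 12837 ± 490 FPKM with glutamate and 8271 ± 187 FPKM with vehicle. Per 1000 FPKM of Cpa3, Prss34 stood at 60.7 ± 3.48 with glutamate and 59.6 ± 2.96 with vehicle, and Mcpt8 at 0.625 ± 0.0359 with glutamate and 0.660 ± 0.0992 with vehicle, with overlap in both cases.

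Ccr3 had 0.349, 0.522, 0.648 and 0.491 FPKM in glutamate libraries, against 1.80, 2.16, 2.004 and 1.94 FPKM in vehicle libraries. Every glutamate library was lower, with a log2 difference of -0.99 ± 0.0747, or -0.66 relative to the median row (limma adjusted p = 5.49e-08). Ccr3 passed the filter only through the vehicle libraries, so it had to differ once tested, and nothing is read from its call. Cd200r3 averaged 235 ± 7.38 FPKM with glutamate and 322 ± 9.04 FPKM with vehicle, a log2 difference of -0.45 ± 0.0330 (limma adjusted p = 4.06e-08), and Cd200r4 averaged 180 ± 4.195 FPKM with glutamate and 228 ± 6.48 FPKM with vehicle, a difference of -0.34 ± 0.0320 (limma adjusted p = 4.15e-07). Relative to the median row these were -0.12 and -0.02, and with each library centred on its median both calls ended, at -0.04 for Cd200r3 (limma adjusted p = 0.345) and 0.07 for Cd200r4 (limma adjusted p = 0.114). Cd244 at 2.06 ± 0.186 FPKM with glutamate and 2.06 ± 0.299 FPKM with vehicle, and Gpr183 at 1.38 ± 0.204 FPKM with glutamate and 1.22 ± 0.134 FPKM with vehicle, did not pass, but were called higher after that centring, by 0.41 and 0.51 on the log2 scale (limma adjusted p = 0.000488 and 0.000102).

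Of the 22 listed genes used by basophils and mast cells alike, 19 were tested with glutamate, with 7 higher, 8 lower and a median log2 difference of -0.02. For comparison, 16.9% of all 8297 rows were called higher and 62.4% lower, with the median row at -0.33. With each library centred on its median, these shares were 44.6% and 31.5%. Hdc, which makes histamine, averaged 454 ± 24.6 FPKM with glutamate and 264 ± 13.5 FPKM with vehicle (limma adjusted p = 4.66e-09), and Csf2rb2, a chain of the mouse IL-3 receptor, averaged 31.8 ± 3.18 FPKM with glutamate and 115 ± 4.77 FPKM with vehicle (limma adjusted p = 4.56e-11). Of the other 27 basophil genes, 16 were tested, with 7 higher, 7 lower and a median of 0.02. Ccl3 averaged 23.99 ± 2.09 FPKM with glutamate and 14.4 ± 1.11 FPKM with vehicle (limma adjusted p = 7.35e-07), while C5ar1, the receptor of complement C5a, averaged 5.39 ± 0.391 FPKM with glutamate and 15.4 ± 0.423 FPKM with vehicle (limma adjusted p = 3.35e-10).

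**Figure D3:**
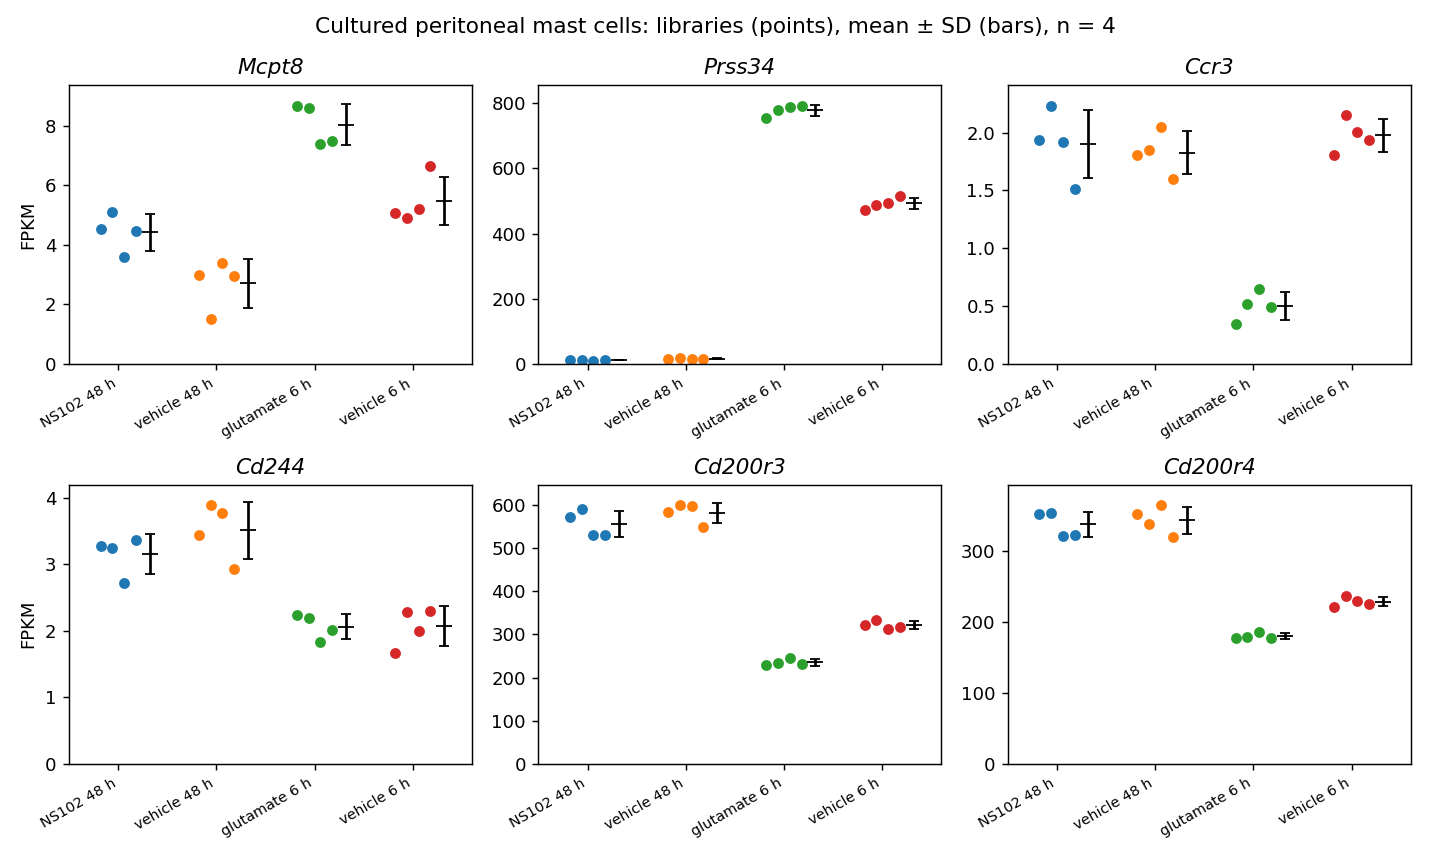
Each panel gives FPKM of 1 gene in cultured peritoneal mast cells, with 4 libraries per group as points and mean ± SD as bars, from left to right NS102 48 h, vehicle 48 h, glutamate 6 h and vehicle 6 h. Prss34 is between 473 and 793 FPKM at 6 h and below 20 FPKM at 48 h, while Cd200r3 and Cd200r4 are higher at 48 h.

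NS102 for 48 h went with more Mcpt8 and less Prss34, so the proteases parted. Of 6 members tested, 1 was higher and 1 lower, against 70.5% of 8373 rows past the test, 30.8% higher and 39.7% lower, with the median row at -0.06. Mcpt8 had 4.52, 5.11, 3.61 and 4.47 FPKM in NS102 libraries, against 2.99, 1.52, 3.37 and 2.94 FPKM in vehicle libraries at 48 h. All NS102 libraries were above all vehicle libraries, with a log2 difference of 0.57 ± 0.153 (limma adjusted p = 0.00499). Prss34 had 11.5, 11.3, 10.3 and 11.6 FPKM in NS102 libraries, against 15.7, 17.9, 14.5 and 14.2 FPKM in vehicle libraries, lower without overlap, with a difference of -0.45 ± 0.0753 (limma adjusted p = 0.000199). Per 1000 FPKM of Cpa3, Mcpt8 stood at 0.377 ± 0.0455 with NS102 and 0.206 ± 0.0590 with vehicle, without overlap. On that scale Prss34 stood at 0.953 ± 0.107 with NS102 and 1.19 ± 0.145 with vehicle, with overlap. The other 4 tested members did not pass, with Ccr3 at 0.03, Cd244 at -0.12, Cd200r3 at -0.07 and Cd200r4 at -0.02 on the log2 scale.

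Of the 27 other basophil genes, 16 were tested with NS102, with 11 higher, 3 lower and a median log2 difference of 0.39, against -0.06 over all rows. Of all 8373 rows, 30.8% were called higher and 39.7% lower, and the difference of the lists from that share was not tested. Ccl3 averaged 27.6 ± 2.51 FPKM with NS102 and 1.57 ± 0.522 FPKM with vehicle (limma adjusted p = 6.96e-10). Osm averaged 64.0 ± 5.35 FPKM with NS102 and 16.8 ± 0.666 FPKM with vehicle (limma adjusted p = 6.86e-10). Ccl4 averaged 33.4 ± 3.63 FPKM with NS102 and 8.30 ± 1.92 FPKM with vehicle (limma adjusted p = 9.27e-08). Of the 22 genes shared with mast cells, 20 were tested, with 11 higher, 7 lower and a median of 0.15, among them Gata2, at 244 ± 27.7 FPKM with NS102 and 153 ± 13.1 FPKM with vehicle (limma adjusted p = 1.52e-05). Tnf, counted among the higher genes, was at most 0.201 FPKM in vehicle libraries and passed the filter only through the NS102 libraries. Nothing is read from its call.

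The vehicle groups at 48 h and 6 h differed more for Prss34 than glutamate or NS102 did from its own vehicle. They differ in time and, by the labels, in medium, and since they are also the controls of the comparisons above, the 3 comparisons share libraries. Of 7 members tested, 3 were higher and 3 lower at 48 h, against 71.9% of 8467 rows, 34.2% higher and 37.7% lower, with the median row at -0.02. Prss34 averaged 15.6 ± 1.68 FPKM at 48 h and 493 ± 17.6 FPKM at 6 h, a log2 difference of -4.90 ± 0.0618 (limma adjusted p = 5.73e-16). Mcpt8 was lower by a smaller step, at 2.71 ± 0.816 FPKM at 48 h and 5.46 ± 0.802 FPKM at 6 h (limma adjusted p = 0.000132). Gpr183 averaged 0.517 ± 0.0999 FPKM at 48 h and 1.22 ± 0.134 FPKM at 6 h (limma adjusted p = 1.02e-05), and passed the filter only through the 6 h libraries, so nothing is read from its call. Cd200r3 rose to 582 ± 23.3 FPKM at 48 h, against 322 ± 9.04 FPKM at 6 h (limma adjusted p = 1.94e-10), and Cd200r4 to 343 ± 19.1 FPKM at 48 h, against 228 ± 6.48 FPKM at 6 h (limma adjusted p = 3.01e-08). Cd244 averaged 3.51 ± 0.428 FPKM at 48 h and 2.06 ± 0.299 FPKM at 6 h (limma adjusted p = 7.57e-05), while Ccr3 did not pass, at 1.82 ± 0.186 FPKM at 48 h and 1.98 ± 0.146 FPKM at 6 h.

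Of the 22 genes shared with mast cells, 19 were tested between the vehicle groups, with 10 higher and 6 lower at 48 h and a median log2 difference of 0.15. The shares over all 8467 rows were 34.2% higher and 37.7% lower, with the median row at -0.02. Hdc was lower at 48 h, at 22.1 ± 2.93 FPKM at 48 h and 264 ± 13.5 FPKM at 6 h (limma adjusted p = 5.39e-14), and Fcer1a was higher, at 8266 ± 238 FPKM at 48 h and 3023 ± 105 FPKM at 6 h (limma adjusted p = 5.93e-13). Of the other 27 basophil genes, 16 were tested, with 5 higher, 9 lower and a median of -0.42.

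**Figure D4:**
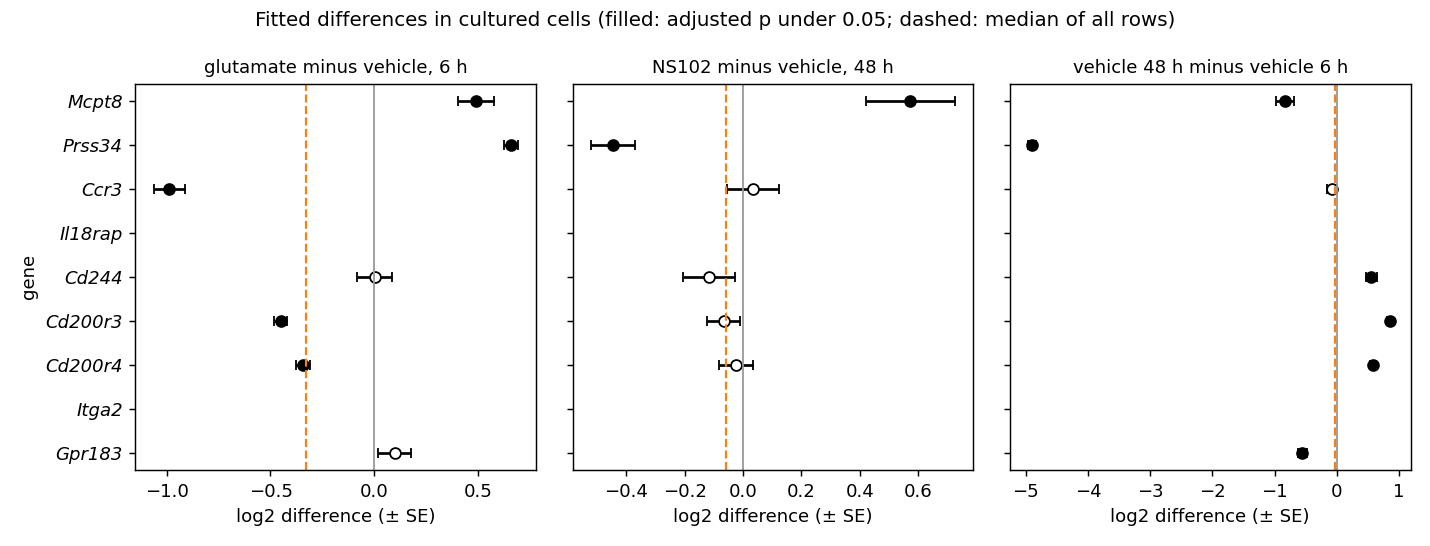
Points are fitted log2 differences (horizontal axis, bars are standard errors) of the members that passed the filter in 3 comparisons of cultured cells, filled where the limma adjusted p was under 0.05, with dashed lines at the median of all rows. Prss34 lies at 0.66 with glutamate, at -0.45 with NS102 and at -4.90 for vehicle 48 h minus 6 h.

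In skin, the basophil proteases were at or near 0. Prss34 was listed at 0 in all 16 skin libraries, and Mcpt8 at 0 in every DTR library and in 3 of 4 Cre libraries, with 0.301 FPKM as its highest value, in a PBS library. Ccr3 was at most 0.0790 FPKM, and Il18rap had group means between 0.136 and 0.190 FPKM. Itga2, Gpr183 and Cd244 had means between 1.74 and 2.28, between 1.26 and 1.68 and between 0.967 and 1.49 FPKM, and Cd200r3 and Cd200r4 stood near or below 1 FPKM. In Cre skin, Cpa3 averaged 11.97 FPKM and Mcpt8 0.00956 FPKM, against 1891 and 343 FPKM in sorted Cre cells. The part of cell content in the skin levels was not tested.

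Between DTR and Cre skin, 3 members passed the filter and 0 passed the limma test, with 1 of the 3 at an unadjusted p under 0.05, against 13.6% of 12607 rows past the test. Of these rows 7.38% were higher and 6.25% lower in DTR skin, or 5.74% higher and 8.16% lower with each library centred on its median. Cd244 had 1.58, 1.34, 1.66 and 1.41 FPKM in DTR skin, against 1.07, 1.35, 1.04 and 1.12 FPKM in Cre skin, overlapping in 1 library of each group (log2 difference 0.22 ± 0.0715, limma adjusted p = 0.0673). Itga2 and Gpr183 differed by 0.13 and 0.10 on the log2 scale, within the overlap of their groups (limma adjusted p = 0.211 and 0.363). The CD200 receptor pair stayed under the filter. Cd200r3 had 0.620, 0.782, 0.789 and 1.01 FPKM in DTR skin, against 0.355, 0.226, 0.498 and 0.395 FPKM in Cre skin. Every DTR library was above every Cre library, as was so for 11.8% of all rows tested. With no filter on low values, Cd200r3 passed the limma test at 0.40 ± 0.0781 (adjusted p = 0.0297), as did 1196 of 18874 rows in that fit. Cd200r4 averaged 0.832 ± 0.211 FPKM in DTR skin and 0.439 ± 0.144 FPKM in Cre skin, with overlap.

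Mast cell genes were also higher in DTR skin. Of 19 mast cell genes, 14 were tested, with 11 higher and 0 lower, against 7.38% of 12607 rows higher and 6.25% lower. Cpa3 averaged 36.7 ± 3.69 FPKM in DTR skin and 11.97 ± 1.504 FPKM in Cre skin (limma adjusted p = 1.01e-05). Of the 22 genes shared by basophils and mast cells, 15 were tested, with 5 higher (Ms4a2, Gata2, Hdc, Alox5 and Cd200r1) and 0 lower, and the first 3 of these are also in the mast cell list. Of the other 27 basophil genes, 16 were tested and 0 passed. Cd200r3 and Cd200r4 are expressed by the cultured mast cells at the levels given above, and the part of mast cell content in their skin levels was not tested.

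Between β-alanine and PBS skin, 2 members passed the filter and 0 passed the limma test, with 1 of the 2 at an unadjusted p under 0.05, against 0.212% of 12709 rows past the test. Gpr183 averaged 1.26 ± 0.240 FPKM with β-alanine and 1.68 ± 0.131 FPKM with PBS (log2 difference -0.25 ± 0.0919, limma adjusted p = 0.425), and Itga2 averaged 2.28 ± 0.194 FPKM with β-alanine and 2.08 ± 0.304 FPKM with PBS (limma adjusted p = 0.776). Cd200r3 had 0.0410, 0, 0.0353 and 0.0160 FPKM in β-alanine skin, against 0.649, 0.708, 1.03 and 0.648 FPKM in PBS skin. Cd200r4 had 0.252, 0.0941, 0.481 and 0.379 FPKM in β-alanine skin, against 0.882, 0.965, 1.10 and 1.21 FPKM in PBS skin. Both were lower in every β-alanine library, as were 5.56% of all rows tested, and neither reached the filter. With no filter, Cd200r3 passed the limma test at -0.78 ± 0.0659 (adjusted p = 0.00293), and Cd200r4 did not, at -0.66 ± 0.0965 (adjusted p = 0.0616). In that fit 37 of 19076 rows passed.

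Several mast cell genes were lower in β-alanine skin than in PBS skin. Of 14 tested, 7 were called lower and 0 higher, against 0.197% of 12709 rows lower and 0.0157% higher. Cpa3 stood at 0.370 ± 0.226 FPKM in β-alanine skin and 33.6 ± 3.97 FPKM in PBS skin (limma adjusted p = 1.82e-08). Cpa3 and Tpsb2 were at most 0.619 and 0.263 FPKM in β-alanine libraries, so they passed the filter only through the PBS libraries. They had to differ once tested, so nothing is read from their calls or from the count of 7, which includes them. Of the 19 mast cell genes, 9 had a mean of at least 1 FPKM in β-alanine skin, against 15 in PBS skin. Of the 15 tested genes shared by basophils and mast cells, 2 were lower (Ms4a2 and Gata2) and 0 higher, and of 19 tested among the other basophil genes 0 passed. Ms4a2, which is also in the mast cell list, was at most 0.0421 FPKM in β-alanine libraries. It passed the filter only through the PBS libraries, so nothing is read from its call in either list. The part of mast cell content in the levels of Cd200r3 and Cd200r4 was again not tested.

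**Figure D5:**
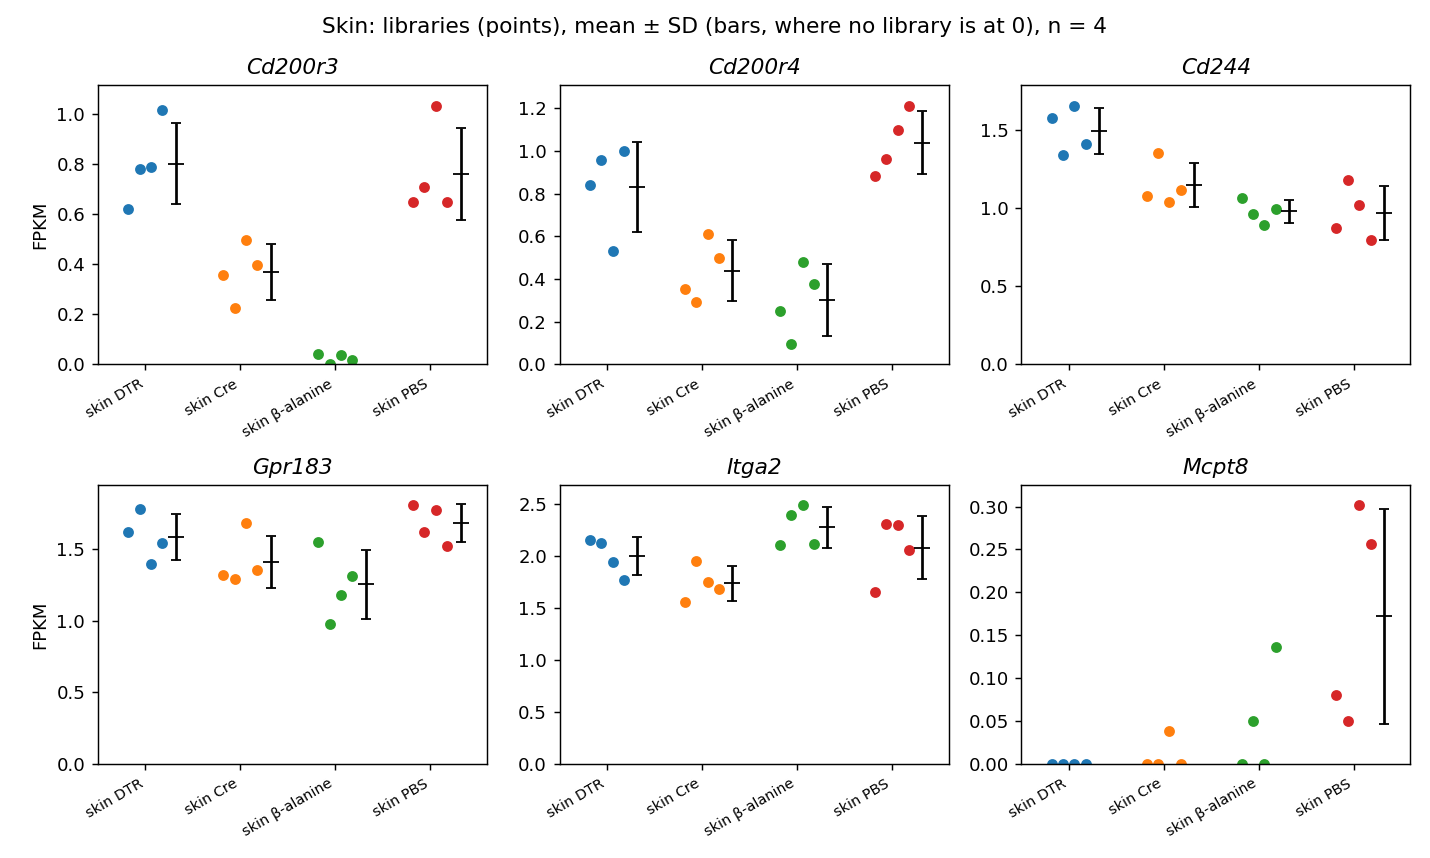
Each panel gives FPKM of 1 gene in skin, with 4 libraries per group as points and mean ± SD as bars where no library is at 0, from left to right DTR, Cre, β-alanine and PBS. Cd200r3 is above Cre skin in all DTR libraries and at most 0.0410 FPKM in β-alanine skin, while Itga2 and Gpr183 stay between 0.978 and 2.49 FPKM in all groups.

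Likeness to Mcpt8 was measured as Pearson's r over the 10 group means of log2(FPKM + 1). The points are group means of the same libraries, so r is a description only. The search covered 9528 rows whose highest group mean was at least 5 FPKM, apart from members, predicted genes and small RNAs. Symbols that begin with C or D and a digit, C5ar1 among them, were left out as well. The 10 rows most like Mcpt8 were Ccl4, Fam65b, Clec2i, Siglec5, Arhgap4, Tbc1d10c, Ccl3, Fut7, Hist1h2bn and Ltb, with r between 0.98 and 0.92. All 10 had their highest mean in sorted Cre cells, for instance Clec2i, which averaged 2.20 FPKM in sorted DTR cells and 15.8 FPKM in sorted Cre cells. Of the members, Il18rap, Ccr3 and Cd244 were most like Mcpt8, with r of 0.94, 0.91 and 0.88, followed by Gpr183 at 0.74, Cd200r3 at 0.64, Prss34 at 0.59, Cd200r4 at 0.53 and Itga2 at 0.02. Prss34, high in culture at 6 h, had Cks2 (r = 0.98) as its most similar row, a gene whose protein acts in the cell cycle and which averaged 177 FPKM with glutamate and 153 FPKM with vehicle at 6 h. That row was picked for Prss34 after the values had been seen.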

How the data were processed

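The authors deposited 1 table of FPKM values, made with STAR and Cufflinks (genome build mm9), per the submitters' processing notes; versions, annotation, filters and any further scaling are not given in the sources used here. The header names no unit, and decimals with unequal sums per library fit FPKM. No counts were used, so absolute depth is unknown. From steps among low values, depth relative to replicate 1 of a group ranged from 0.574 to 1.41, and precision rests on the 4 libraries per group. Each of 40 libraries was placed by its label.

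The 9 members, the gene lists and the tests were chosen with earlier results of these data known. The naming rule took all members, the 10 rows most like Mcpt8, the 6 highest genes of each basophil list in sorted cells, up to 4 called genes per list and comparison in order of p, 4 mast cell genes, and the highest gene of every other list. Values were tested as log2(FPKM + 1) with limma 3.58.1 in R 4.3.3 (two-sided, mean-variance trend), on rows that reached 1 FPKM in 4 or more of 8 libraries, with Benjamini-Hochberg adjustment over all rows. Fold changes of low genes are understated on this scale. The sorted contrast gave no test for members. List symbols were matched with older names (Gpr44, Siglec5, Emr1). The fit was tested on simulated data. Alternatives were a pseudocount of 0.1, no filter, median centring, the replicate number as a block, each library left out, and the sum of rows with a symbol. Promoters came from RefSeq tables, read with Python 3.11.15, pandas 2.3.3, numpy 2.4.6, biopython 1.88 and matplotlib 3.10.9.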

Additional observations from a re-analysis of the deposited data

Results flagged for a closer look

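In 9 of 85 groups of 4 libraries, 1 library lay apart from the other 3 by Dixon's criterion. Chance picks out about 1 group in 20 where values are normally distributed. Several flagged groups had values near 0, where that rate need not hold, so nothing is read from the number flagged. Among sorted DTR cells these were Prss34 at 2.79 FPKM and Il18rap at 0.0876 FPKM, both in replicate 3, and Cd244 at 0.262 FPKM in replicate 2, each the highest of its group. Replicate 3 of Cre skin was the highest for Mcpt8 (0.0382 FPKM, the other 3 at 0), Ccr3 (0.0730 FPKM) and Gpr183 (1.68 FPKM). The remaining ones were Cd200r3 at 1.03 FPKM in PBS skin replicate 3, Cd200r4 at 186 FPKM in glutamate replicate 3, and Itga2 at 0.178 FPKM in vehicle 48 h replicate 1.

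Cd200r3 differed in direction between tissues. It was lower in DTR than in Cre in sorted cells (log2 difference -0.83) and higher in DTR than in Cre in skin (0.40), without overlap in either, and the effects were 1.23 apart (-1.23, sorted minus skin). That difference was not tested, since the sorted contrast chose the gene.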

How the results depend on the processing

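Members named as past the limma test in cultured cells kept their call and direction under every alternative that gave a value, except with glutamate under median centring, where the calls of Cd200r3 and Cd200r4 ended, Cd200r4 also changed sign (-0.34, past the test, against 0.0692, not past it, under centring), and Cd244 and Gpr183 were called. The other log2 differences that changed sign were not past the test under either setting: without single libraries, Cd244 with glutamate (-0.0628 to 0.0404), Ccr3 (-0.0194 to 0.102) and Cd200r4 (-0.0585 to 0.0043) with NS102, and, under median centring, Ccr3 for 48 h against 6 h (0.0056). Ccr3 with glutamate and Gpr183 for 48 h against 6 h gave no value without any 1 vehicle 6 h library, as they then failed the filter. With no filter, 1 member (Cd200r3) passed in each skin comparison, beside 1196 of 18874 rows for DTR skin and 37 of 19076 rows for β-alanine skin. Leaving out single libraries gave 773 to 1512 rows past the test for DTR skin, against 1719 (865, 773 and 989 without DTR replicates 1, 2 and 3, 1122 and 928 without Cre replicates 2 and 4), and 11 to 38 for β-alanine skin, against 27 (13, 11, 12 and 12 without PBS replicates 1 to 4). The median difference of the 9 genes in sorted cells was -6.16 with a pseudocount of 0.1 and -3.56 to -3.17 without single libraries. Low FPKM values and 4 libraries per group limit the skin and DTR levels.

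The replicate numbers did not clearly pair the libraries, though a check on 4 libraries per group cannot exclude pairing. Correlations of same-numbered deviations ran from -0.247 to 0.463 over 6 comparisons, and none had all 4 above 0.1 or every library closest to its own number. With the replicate block, members past the test numbered 0 for DTR skin, 0 for β-alanine skin, 5 for glutamate, 2 for NS102 and 6 for 48 h against 6 h, and rows past it 1507, 20, 6629, 5642 and 6319.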
